A study of Rattus norvegicus with 6 samples.

Results

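Erythroid differentiation genes were followed in 6 bulk RNA libraries of rat intervertebral disc. These are 8 genes of the 30562 in the table, 2 transcription factors (Gata1 and Klf1), the heme synthesis gene Alas2, 3 genes of the red cell membrane (Slc4a1, Epb42 and Rhag), Tmcc2 and the globin gene Hbb. They were chosen from the measured counts of these same libraries, because erythroid genes varied from library to library, and their levels and fold changes are therefore given as a description, with no test. All 8 were found in the table, and all 8 passed the filter on low counts, which a gene can do through high values in some libraries alone.

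The study asked how disc tissue responds to AF-PTK@LEV@SPP1, a vesicle of liposomes fused with bacterial outer membrane vesicles. Its surface peptide attaches to the annulus fibrosus (AF, the outer ring of the disc) and sits on a linker that reactive oxygen species cleave, and its cargo is an siRNA against Spp1. By the methods, both groups were male Sprague-Dawley rats, 12 weeks old, whose tail disc was punctured with an 18-gauge needle. From 24 h after surgery the discs received 10 μL of the vesicle with 1 mg/kg of siRNA, or PBS in the Control group, and the rats were followed for 8 weeks. Each group holds 3 libraries, and those labelled AF-PTK@LEV@SPP1 are called vesicle-labelled below. The sample records differ from the methods: they give wild-type genotype, an untreated control, 14 days of treatment, and macrophages sorted from discs of mice. Elsewhere the records speak of rats. Control replicates 1, 2 and 3 held 17942989, 16565291 and 17489851 counts, and vesicle-labelled replicates 1, 2 and 3 held 17074981, 15560728 and 17855184. Levels are given as normalized CPM, counts scaled by library size and composition, and 3 counts in a library correspond to 0.167 to 0.193 CPM before that correction, a limit that covers counting error only.

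Red cells arise from erythroid progenitors through nucleated erythroblasts, in which Gata1 and Klf1 switch on the genes for heme, globin and the membrane skeleton. The cell then expels its nucleus, and the reticulocyte carries its remaining mRNA, mostly globin, into the blood. In the adult rat this takes place in bone marrow and spleen, and the disc, which is largely avascular, borders the vertebral bone through its end plates. This is background and not a result of these data.

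Spp1 (ENSRNOG00000043451, chromosome 14 from 5308885 to 5315162), the target of the siRNA, was measured first as a check of the labels. It stood at 8119.7, 4421 and 4425 normalized CPM in Control replicates 1, 2 and 3 and 8044, 6869.6 and 8431 in vesicle-labelled replicates 1, 2 and 3. The groups overlapped and Spp1 was not lower in the vesicle-labelled libraries. The edgeR quasi-likelihood test gave a log2 fold change of 0.31 with a standard error of 0.37 (adjusted p = 0.628), Spp1 was above the higher Control value in 1 of the 3 libraries, and without the Control pair of replicates 2 and 3 the sign turned, to -0.0657. The siRNA was designed for mouse Spp1 by its description, and the animals were rats. Whether it matches rat Spp1 was not tested. Bulk tissue sums Spp1 over all its cells, so this check cannot decide whether the labels hold. Directions are given relative to the labels.

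Control replicates 2 and 3 differed by little more than sampling noise. Over the 14393 genes that reached 20 counts when summed, their counts varied 1.33 times as much as counting noise, against 51.3 to 107 times for the 5 other pairs within a group. They were counted as 1 sample, which leaves 2 distinct Control samples and 3 labelled AF-PTK@LEV@SPP1. Hbb was among the 16 genes (0.111%) that did differ within this pair, with 4932 and 5818 counts, a ratio of 1.12 after scaling to the library totals.

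Markers of the labelled tissue were abundant in all 6 libraries. The cartilage collagen gene Col2a1 stood at 13868, 21174 and 20971 normalized CPM in Control and 25928, 20277 and 31867 in the vesicle-labelled libraries. The records name F4/80 and CD11b as sorting markers, and their genes Adgre1 and Itgam had 15.3 to 42.9 and 15.2 to 99.97 CPM over the 6 libraries. Adgre1 overlapped between the groups. Itgam did not, at 99.97, 71.1 and 69.8 CPM in Control and 15.2, 59.2 and 64.6 in the vesicle-labelled libraries. Nor did Cd68, another macrophage gene, at 150, 112 and 117 CPM in Control and 28.5, 41.9 and 30.8 in the vesicle-labelled libraries. Of all genes tested, 22.2% were apart and lower. The samples are called disc tissue here, after the methods.

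The transcription factors come first. Gata1 (ENSRNOG00000047663, chromosome X from 14529702 to 14537530), the zinc finger factor that erythroid cells require, had 1.95, 0.322 and 0.0612 normalized CPM in Control replicates 1, 2 and 3 and 0.998, 17.5 and 9.20 in vesicle-labelled replicates 1, 2 and 3. Klf1 (ENSRNOG00000003443, chromosome 19 from 23250631 to 23253758), the factor that binds the CACCC box of the adult β-globin promoter, had 2.11, 0.516 and 0.612 normalized CPM in Control replicates 1, 2 and 3 and 0.998, 25.3 and 11.4 in vesicle-labelled replicates 1, 2 and 3. Both genes were highest in vesicle-labelled replicates 2 and 3, intermediate in Control replicate 1, lower in vesicle-labelled replicate 1 and lowest in the Control pair. The counts behind the low end were few: Gata1 had 38, 5 and 1 counts in Control and 17, 291 and 162 counts in the vesicle-labelled libraries, and Klf1 had 41, 8 and 10 counts in Control and 17, 421 and 200 counts in the vesicle-labelled libraries. Vesicle-labelled replicate 1 lay below Control replicate 1 for both, so the groups overlapped. Means were 9.22 ± 8.24 (SD, n = 3) against 1.07 ± 1.24 (SD, n = 2) CPM for Gata1 and 12.5 ± 12.2 (SD, n = 3) against 1.33 ± 1.09 (SD, n = 2) CPM for Klf1, in the vesicle-labelled libraries and in Control. The genome build of all coordinates given with these identifiers is not stated in the table.

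Alas2 (ENSRNOG00000000167, chromosome X from 19463171 to 19486519), the erythroid enzyme of the first step of heme synthesis, had 26.6, 29.3 and 26.9 normalized CPM in Control replicates 1, 2 and 3 and 27.8, 303 and 183 in vesicle-labelled replicates 1, 2 and 3. It differed from the other non-globin genes of the 8 in Control. All 3 Control libraries and vesicle-labelled replicate 1 lay within 26.6 to 29.3 CPM, and only vesicle-labelled replicates 2 and 3 stood apart from them. The mean was 171 ± 138 (SD, n = 3) against 27.3 ± 1.06 (SD, n = 2) CPM in Control, and the groups overlapped through vesicle-labelled replicate 1.

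Of the membrane genes, Slc4a1 (ENSRNOG00000020951, chromosome 10 from 87306872 to 87323117) encodes band 3, the anion exchanger of the red cell. It had 50.6, 5.55 and 5.51 normalized CPM in Control replicates 1, 2 and 3 and 38.7, 735 and 315 in vesicle-labelled replicates 1, 2 and 3. Epb42 (ENSRNOG00000011649, chromosome 3 from 107979713 to 107997932), protein 4.2, which ties band 3 to the spectrin skeleton, had 3.59, 0.322 and 0.673 normalized CPM in Control replicates 1, 2 and 3 and 2.76, 50.7 and 23.3 in vesicle-labelled replicates 1, 2 and 3. Rhag (ENSRNOG00000050121, chromosome 9 from 20069807 to 20097836), the glycoprotein partner of the Rh antigens, had 5.29, 0.129 and 0 normalized CPM in Control replicates 1, 2 and 3 and 2.41, 65.6 and 29.5 in vesicle-labelled replicates 1, 2 and 3. The order of the libraries was the same for these 3 genes as for Gata1 and Klf1, with Control replicate 1 above vesicle-labelled replicate 1 and the Control pair lowest. Rhag had 103, 2 and 0 counts in Control and 41, 1092 and 520 counts in the vesicle-labelled libraries, so that the Control pair was at or under the 3-count limit. Slc4a1 averaged 363 ± 351 (SD, n = 3) against 28.1 ± 31.9 (SD, n = 2) CPM, Epb42 25.6 ± 24.04 (SD, n = 3) against 2.05 ± 2.19 (SD, n = 2) and Rhag 32.5 ± 31.7 (SD, n = 3) against 2.68 ± 3.69 (SD, n = 2), again with Control second. For each of the 3, the SD in either group was close to its mean or above it.

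Tmcc2 (ENSRNOG00000000033, chromosome 13 from 43794029 to 43831716), which encodes a transmembrane protein with coiled coils, had 26.96, 9.22 and 8.14 normalized CPM in Control replicates 1, 2 and 3 and 26.5, 279 and 71.5 in vesicle-labelled replicates 1, 2 and 3. Its values in Control replicate 1 and in vesicle-labelled replicate 1 were nearly equal, with a ratio of 1.02, and its vesicle-labelled replicate 2 was 3.90 times replicate 3, where the other 7 genes gave 1.38 to 2.34. The means were 126 ± 135 (SD, n = 3) against 17.8 ± 12.9 (SD, n = 2) CPM, in the vesicle-labelled libraries and in Control.

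Hbb (ENSRNOG00000047098, chromosome 1 from 158120200 to 158252012), adult β-globin, had 226, 318 and 356 normalized CPM in Control replicates 1, 2 and 3 and 217, 1626 and 1175 in vesicle-labelled replicates 1, 2 and 3. Here the Control pair lay above Control replicate 1, and vesicle-labelled replicate 1 was the lowest of all. The mean was 1006 ± 719.6 (SD, n = 3) against 281 ± 78.7 (SD, n = 2) CPM in Control. The row spans 131813 bases and takes in 7 other genes, which had 28 counts in all over the 6 libraries. Reads shared between near-identical globin copies may be split or dropped, so that its level is uncertain.

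**Figure D1:**
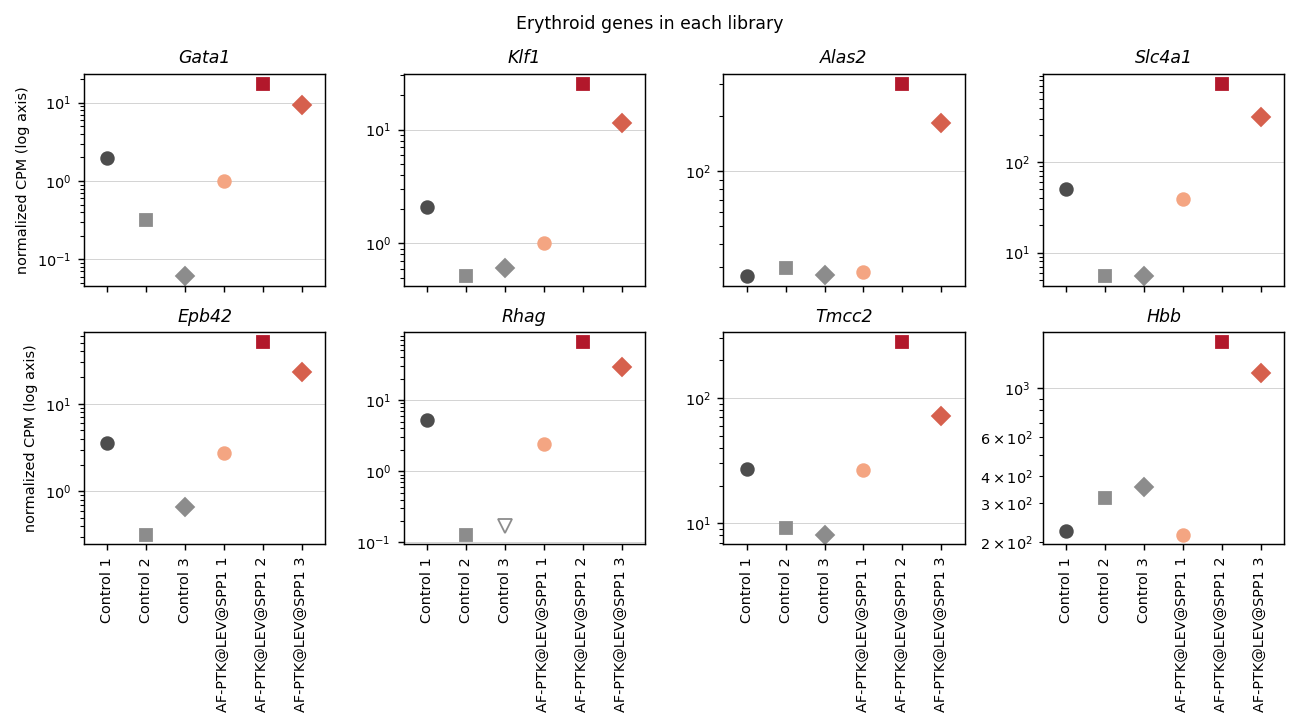
Normalized CPM (log axis) of each of the 8 erythroid genes in the 6 libraries, 1 point per library; the open triangle for Rhag marks a library with 0 counts, drawn at its 3-count limit. Vesicle-labelled replicates 2 and 3 are the highest for all 8 genes, and replicate 1 with that label lies within the range of the Control libraries for all but Hbb, where it is just below them.

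Vesicle-labelled replicate 2 was the highest and replicate 3 the next for 8 of the 8 genes. Control replicate 1 lay above vesicle-labelled replicate 1 for 7 of them, the exception being Alas2, and the Control pair was the lowest for 6, the exceptions being Alas2 and Hbb. The groups overlapped for all 8 genes over the 5 distinct samples, so 0 of 8 were apart, where 45.8% of the 15537 genes tested had groups that did not overlap. Nothing is read from that count, since the genes were selected on these values. Together the 8 genes took 0.0372%, 0.0340% and 0.0372% of the counts in Control replicates 1, 2 and 3, and 0.0316%, 0.332% and 0.179% in vesicle-labelled replicates 1, 2 and 3. Without Hbb these shares were 0.0127%, 0.00425% and 0.00391% in Control and 0.00999%, 0.158% and 0.0634% in the vesicle-labelled libraries. More cells of a type and more RNA per cell cannot be told apart in bulk tissue.

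The fitted log2 fold changes, vesicle-labelled over Control, describe the same values with the spread left out. They were 3.70 (standard error 1.57) for Slc4a1, 3.70 (standard error 1.47) for Epb42, 3.67 (standard error 1.88) for Rhag and 3.27 (standard error 1.41) for Klf1. Lower estimates were those of Gata1 at 3.17 (standard error 1.48), Tmcc2 at 2.82 (standard error 1.17), Alas2 at 2.64 (standard error 0.99) and Hbb at 1.83 (standard error 0.85). Each standard error belongs to 1 gene, and all 8 estimates come from the same samples. It does not measure the difference between 2 genes, and nothing is read from this order. Without Control replicate 1 the estimates became 8.87 for Rhag, 6.03 for Slc4a1, 5.64 for Epb42 and 5.56 for Gata1. That fit left the Control pair alone, with 2 and 0 counts of Rhag and 5 and 1 of Gata1. The estimates of these 2 genes therefore rest on counts near the 3-count limit and are not exact. Without vesicle-labelled replicate 2 the estimate of Tmcc2 became 1.47. Within the vesicle-labelled libraries alone, the log2 CPM of the 8 genes ranged over 2.91 (Hbb) to 4.70 (Rhag), against a median range of 0.41 over all genes tested. Variation of this kind is what the genes were chosen by.

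The ratio of 2 genes within a library does not depend on library size, and how it varies between libraries can be read without gene lengths. Per 1000 counts of Hbb, Slc4a1 had 224, 17.4 and 15.5 in Control and 178, 452 and 268 in the vesicle-labelled libraries. The 95% exact binomial intervals were 209 to 240.4 for Control replicate 1, 13.9 to 21.6 for replicate 2 and 164 to 194 for vesicle-labelled replicate 1, and cover counting error only. By this ratio Control replicate 1 lay inside the range of the 3 vesicle-labelled libraries, and the Control pair stood apart from the other 4 libraries. Epb42 gave 15.9, 1.01 and 1.89 in Control and 12.7, 31.2 and 19.8 in the vesicle-labelled libraries per 1000 Hbb counts. For Klf1 the ratio was 9.33, 1.62 and 1.72 in Control and 4.60, 15.5 and 9.67 in the vesicle-labelled libraries. Tmcc2 likewise had its lowest ratios in the Control pair, at 119, 28.99 and 22.9 in Control and 122, 172 and 60.8 in the vesicle-labelled libraries, with vesicle-labelled replicate 3 next.

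Alas2 was close to Hbb in its course over the libraries. It had 118, 92.3 and 75.5 in Control and 128, 186 and 156 in the vesicle-labelled libraries per 1000 Hbb counts, a 2.47-fold span from lowest to highest, where Slc4a1 spanned 29.2-fold. Hba-a1, α-globin, spanned 1.32-fold, from 8128 to 10721 counts per 1000 of Hbb. Ahsp, the chaperone of free α-globin, did not follow the globins and had 76.7, 6.69 and 2.75 in Control and 42.5, 104 and 65.97 in the vesicle-labelled libraries. In the Control pair, then, globin and Alas2 levels were at or above those of Control replicate 1 while Slc4a1, Epb42, Rhag, Klf1, Gata1 and Ahsp were several times lower. These ratios were not tested.

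**Figure D2:**
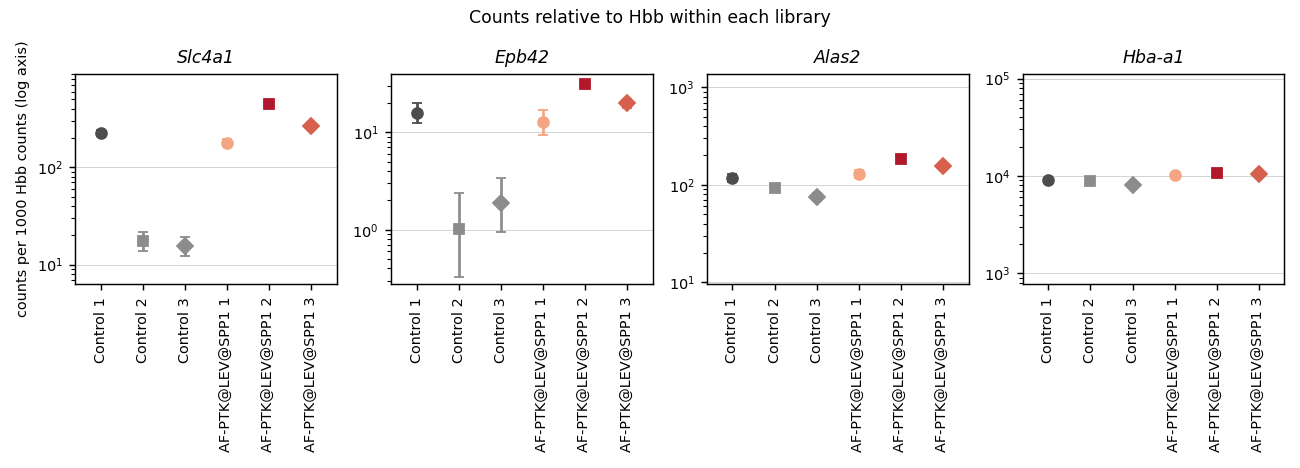
Counts of Slc4a1, Epb42, Alas2 and Hba-a1 per 1000 counts of Hbb in each library (log axis, the same number of decades in each panel), with 95% exact binomial intervals that cover counting error only. The Control pair is low for Slc4a1 and Epb42 and lies near the other libraries for Alas2 and Hba-a1.

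Other genes of the erythroid program were taken from 6 lists by role, 87 symbols of which 82 were found, on 83 rows, and 77 were tested. By edgeR's quasi-likelihood test over all 15537 genes, 1 of the 77 was called as higher with the vesicle label and 1 as lower, at an adjusted p under 0.05. Over all genes tested, 1.13% were called higher, 2.57% lower and 3.70% in either direction. At an unadjusted p under 0.05, 22 of the 77 were higher and 5 lower, where 1926 and 2015 of all 15537 genes were, and the counts by list given below at that p stand beside the same background. Their median log2 fold change was 1.47, against 0.05 over all genes tested, and the groups did not overlap for 24 higher and 6 lower genes of the 77, where 23.6% and 22.2% of all genes tested did so. The lists were written with earlier results of these data known, so these counts are descriptions.

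The called genes were not those with the pattern of the 8. Bnip3l (ENSRNOG00000009820, chromosome 15 from 41174594 to 41197803), a mitophagy receptor that clears mitochondria from reticulocytes and also acts in many other cells, stood at 167, 177 and 179 normalized CPM in Control replicates 1, 2 and 3 and 303, 293 and 301 in vesicle-labelled replicates 1, 2 and 3. It was higher in 3 of 3 vesicle-labelled libraries, by a log2 fold change of 0.79 with a standard error of 0.12 in edgeR's quasi-likelihood test (adjusted p = 0.0410). Slc11a2 (ENSRNOG00000019550, chromosome 7 from 131503081 to 131540145), the divalent metal transporter that moves iron out of endosomes, stood at 75.3, 83.3 and 88.3 normalized CPM in Control replicates 1, 2 and 3 and 32.2, 31.8 and 37.7 in vesicle-labelled replicates 1, 2 and 3. It was lower in 3 of 3, by a log2 fold change of -1.25 with a standard error of 0.13 in edgeR's quasi-likelihood test (adjusted p = 0.0221). For both genes vesicle-labelled replicate 1 lay with replicates 2 and 3.

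The number of calls depended on which libraries were kept, while the log2 fold changes of Bnip3l (0.74 to 0.83) and Slc11a2 (-1.35 to -1.16) varied little over 15 alternatives. Without vesicle-labelled replicate 2, edgeR called 0 of 15208 genes (3109 at an unadjusted p under 0.05), and without replicate 3 it called 0 of 15228 (2699 unadjusted), so that 0 erythroid list genes were called in either, with 12 unadjusted in each. Against 575 genes called with all samples, 113 were called without vesicle-labelled replicate 1, 280 without Control replicate 1 and 3 without the Control pair, the last 2 fits leaving 1 Control sample that is assumed to vary like the other group. Without vesicle-labelled replicate 1, 2 erythroid list genes were called. At an unadjusted p under 0.05 there were 56 of 77, against 27 of 77 with all samples. Over all genes these unadjusted counts were 3998 of 15363 and 3941 of 15537. Erythroid genes were taken up because they varied by library, and the library left out was the lowest with its label for all 8 genes. The rise to 56 follows from that choice and is no support. The 2 called without vesicle-labelled replicate 1 were both higher and include neither Bnip3l nor Slc11a2. With DESeq2, 23 erythroid list genes were called, 19 higher and 4 lower of 77 (50 unadjusted), where 2572 of all 15537 genes were called (4395 unadjusted). With all 6 libraries kept separate, edgeR called 11 of 76, 7 higher and 4 lower (55 unadjusted), where 2727 of all 15042 genes were called (5503 unadjusted). The adjusted p of Bnip3l ranged from 7.9e-13 (DESeq2) to 0.172 (edgeR) over 15 alternatives (called in 9), and that of Slc11a2 from 2.4e-12 (DESeq2) to 0.136 (edgeR, called in 11).

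Among the 12 transcription genes, 0 were called by edgeR (1 higher at an unadjusted p under 0.05) and the median log2 fold change was 0.84. The 4 most abundant were Ldb1, Foxo3, Lmo2 and E2f2. Ldb1, a cofactor of the Gata1 complex that is used in most cells, had 74.4, 66.2 and 69.8 normalized CPM in Control and 75.3, 93.8 and 87.6 in the vesicle-labelled libraries. Foxo3 and Lmo2 varied less than the 8 genes, at 33.1 to 58.1 and 21.4 to 44.5 CPM. E2f2, a cell cycle factor of late erythroblasts, had 16.7, 4.90 and 5.63 normalized CPM in Control and 11.7, 84.1 and 40.9 in the vesicle-labelled libraries, the order of libraries seen for Gata1.

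The 13 heme genes gave 0 calls by edgeR (2 higher at an unadjusted p under 0.05), with a median of 1.19 and 12 of 13 highest in vesicle-labelled replicate 2. Fech, the enzyme that puts iron into the porphyrin ring, had 27.98, 20.6 and 21.5 normalized CPM in Control and 29.01, 138 and 75.1 in the vesicle-labelled libraries. Cpox, an enzyme of an earlier step, had 27.5, 18.5 and 20.3 normalized CPM in Control and 18.03, 108 and 62.6 in the vesicle-labelled libraries. Slc25a37, mitoferrin, which carries iron into mitochondria, had 17.9, 14.9 and 17.9 normalized CPM in Control and 17.2, 108 and 61.8 in the vesicle-labelled libraries. For these 3 genes Control replicate 1 and vesicle-labelled replicate 1 lay close to the Control pair, and the groups overlapped for Cpox and Slc25a37 but not for Fech. Tmem14c, a porphyrin carrier, overlapped between the groups, at 30.5 to 55.9 CPM.

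Of 8 iron genes tested, 1 was called lower (Slc11a2), 3 were lower and 1 higher (Tfr2, the second transferrin receptor) at an unadjusted p under 0.05, and the median was -0.44. Fth1, ferritin heavy chain, which stores iron in most cells, had 1859, 3014 and 3047 normalized CPM in Control and 855, 988 and 1012 in the vesicle-labelled libraries. Ftl1, ferritin light chain, had 727, 782 and 837 normalized CPM in Control and 431, 527 and 537 in the vesicle-labelled libraries on its main row, and a second row of that name was at 1 to 5 counts. Tfrc, the transferrin receptor, had 347, 184 and 188 normalized CPM in Control and 149.8, 439.6 and 249 in the vesicle-labelled libraries. Ferritin was thus lower in all 3 vesicle-labelled libraries than in Control without passing the test, Tfrc overlapped, and Ireb2, which senses iron, had 96.6 to 133 CPM.

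Membrane genes other than the 3 above numbered 18. By edgeR 0 were called, 10 were higher and 1 lower at an unadjusted p under 0.05, the median was 2.65, and 16 of 18 were highest in vesicle-labelled replicate 2. Sptb, β-spectrin, had 19.97, 15.9 and 16.3 normalized CPM in Control and 23.3, 195 and 85.98 in the vesicle-labelled libraries. Epb41, protein 4.1, had 37.6, 24.95 and 24.04 normalized CPM in Control and 38.2, 142 and 85.9 in the vesicle-labelled libraries. For both, vesicle-labelled replicate 1 lay just above Control replicate 1 and the groups did not overlap. Aqp1 and Cd47, which endothelial and other cells also express, had 357 to 799 and 220.0 to 280.4 CPM, with Aqp1 lower in each vesicle-labelled library than in Control.

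Of 12 globin list symbols 8 were found and 3 tested, Hba-a1, Hba-a3 and Ahsp, with 0 called by edgeR and 1 higher at an unadjusted p under 0.05. The median was 2.68. Hba-a1 had 2053, 2837 and 2893 normalized CPM in Control and 2200.0, 17429.5 and 12211 in the vesicle-labelled libraries. Hba-a3 had 23.98, 36.5 and 39.1 normalized CPM in Control and 40.9, 278 and 278 in the vesicle-labelled libraries. Ahsp had 17.3, 2.13 and 0.979 normalized CPM in Control and 9.22, 169 and 77.5 in the vesicle-labelled libraries. The 2 globins put vesicle-labelled replicate 1 near Control while Ahsp split Control replicate 1 from the pair, and the row of Hba-a1 encloses that of Hba-a3, so that reads of the copies are uncertain. The embryonic and fetal genes Hbe1, Hbe2, Hbg1 and Hbz were at 3 counts or fewer in every library, as was Hbq1b, a theta-globin row listed as a pseudogene. Hbe1 had 1 and 3 counts in vesicle-labelled replicates 2 and 3, Hbz had 1 count in replicate 2, and Hbe2 and Hbg1 had 0 in all libraries.

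The 23 maturation genes gave 1 call, Bnip3l, with 7 higher and 1 lower at an unadjusted p under 0.05, a median of 1.23 and 21 of 23 highest in vesicle-labelled replicate 2. Car2, carbonic anhydrase, which osteoclasts use as well, had 174, 65.4 and 68.02 normalized CPM in Control and 62.2, 362 and 191 in the vesicle-labelled libraries. Xpo7, a nuclear exporter of maturing erythroblasts, had 84.7, 69.8 and 73.5 normalized CPM in Control and 89.4, 301 and 160.1 in the vesicle-labelled libraries. Prdx2, a peroxidase of red cells, had 106, 91.2 and 91.3 normalized CPM in Control and 80.7, 172 and 133 in the vesicle-labelled libraries. Xpo7 did not overlap between the groups, and Car2 and Prdx2 did.

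Over the 6 lists, vesicle-labelled replicate 2 was the highest of the 5 distinct samples for 62 of 77 genes (80.5%), where it was for 22.1% of all genes tested, and the Control pair was the lowest for 45 (58.4%), against 25.4%. Replicate 3 was the highest for 4. These shares are descriptions of the libraries, and the lists were written with earlier results of these data known.

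Markers of other cells that a disc sample can hold were measured beside the erythroid genes. Of 111 symbols in 13 lists, 107 were found and 104 tested, and edgeR called 1 higher and 5 lower, beside the 3.70% called over all genes. The all-gene counts for the fits that follow are those given above with the erythroid lists. Without vesicle-labelled replicate 1, edgeR called 1 marker gene. At an unadjusted p under 0.05 there were 43 of 104 in that fit, against 23 of 104 with all samples. It called 0 without vesicle-labelled replicate 2 (19 unadjusted) or vesicle-labelled replicate 3 (14 unadjusted). Primary granule genes of neutrophils, 7 of 7 tested with 0 called (0 at an unadjusted p under 0.05), summed to 88.6, 2.58 and 3.30 CPM in Control and 40.2, 282 and 369 CPM in the vesicle-labelled libraries. Their most abundant gene, Mpo, the myeloperoxidase of granulocyte precursors, had 626, 7 and 12 counts in Control and 377, 2330 and 3295 counts in the vesicle-labelled libraries. All 7 were lowest in the Control pair, as were Slc4a1 and Rhag, but 6 of its 7 genes were highest in vesicle-labelled replicate 3 and 1 in replicate 2. Secondary granule genes, 6 tested with 0 called (0 unadjusted), summed to 229, 299.8 and 304 CPM in Control and 85.03, 926 and 1093 CPM in the vesicle-labelled libraries. Ngp led over the 6 libraries and Ltf was at 1 count or none, but in the Control pair Lcn2 made up most of the sum, at 283 and 289 CPM, and 5 of the 6 genes were lowest there. Mature neutrophil genes, 7 tested, summed to 2108, 1029 and 1027 CPM in Control and 523, 2512 and 3369.6 CPM in the vesicle-labelled libraries, and Mmp9, the most abundant over the 6 libraries, was the 1 called, lower. Mmp9 ran against the list, in which 5 of 7 log2 fold changes were positive and S100a8 and S100a9 made up most of the sum in vesicle-labelled replicates 2 and 3.

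Eosinophils, mast cells and basophils shared 1 list of 10 genes, 9 tested with 0 called (0 unadjusted), which summed to 135, 19.1 and 18.5 CPM in Control and 58.7, 1399 and 1008 CPM in the vesicle-labelled libraries. Prg2, eosinophil major basic protein, led it with 1852, 102 and 113 counts in Control and 583, 15308 and 12567 counts in the vesicle-labelled libraries. Prg2 carries the sum, and 5 of the 9 log2 fold changes were positive, with a median of 0.44. All 9 genes were highest in vesicle-labelled replicate 2, as were the 8 erythroid genes, while the mast cell protease Mcpt1 stayed at 17 counts or fewer. B cell precursor genes, 12 tested with 0 called (1 higher unadjusted), summed to 127, 49.1 and 43.1 CPM in Control and 77.5, 143 and 193 CPM in the vesicle-labelled libraries. Ebf1 was the most abundant, and 10 of the 12 were highest in replicate 3. Megakaryocyte genes, 10 tested with 0 called (4 higher and 1 lower unadjusted), summed to 205, 119 and 115 CPM in Control and 55.96, 127 and 103 CPM in the vesicle-labelled libraries, with Itgb3, which osteoclasts also express, in the lead and Gp1bb at 0 counts. Itgb3 and Pf4, which carry the sum, were the 2 with a negative log2 fold change, and the other 8 were positive, for a median of 2.25. The platelet gene Ppbp in that list had 6, 1 and 1 counts in Control and 5, 104 and 83 counts in the vesicle-labelled libraries.

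The 5 skeletal muscle genes tested, 0 of them called (0 unadjusted), summed to 814, 1080.4 and 1095 CPM in Control and 807, 8415 and 2119 CPM in the vesicle-labelled libraries. Acta1, muscle actin, had 286, 346 and 356 normalized CPM in Control and 322, 3207 and 815 in the vesicle-labelled libraries. Muscle genes singled out replicate 2 more than replicate 3. The 10 cell cycle genes, 0 called (0 unadjusted), summed to 327, 200.3 and 201 CPM in Control and 161, 765 and 511 CPM in the vesicle-labelled libraries, led by Mki67, and 10 of 10 were highest in replicate 2. Progenitor genes, 7 tested with 0 called (1 higher and 2 lower unadjusted), summed to 191, 190.3 and 193 CPM in Control and 137, 143 and 157 CPM in the vesicle-labelled libraries, with Cd34, also a gene of vessels, the most abundant. Stem and progenitor markers therefore summed in another order than the 8 erythroid genes. Of their 7 log2 fold changes 4 were positive, with a median of 0.03.

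Bone, disc and vessel lists had other courses. Osteoclast genes, 7 tested, gave 4 calls, all lower (6 lower unadjusted), and summed to 5396, 3412 and 3422 CPM in Control and 821, 753 and 484 CPM in the vesicle-labelled libraries, with Ctsk, cathepsin K, the most abundant. Osteoblast genes, 8 tested with 0 called (0 unadjusted), summed to 36577, 46674 and 46978 CPM in Control and 66208, 48909 and 52917 CPM in the vesicle-labelled libraries, nearly all of it Col1a1. Of the 8 log2 fold changes 3 were positive, with a median of -0.30. Disc and cartilage genes, 9 tested, gave 1 call, Chad, higher (2 higher and 2 lower unadjusted), and summed to 21415, 34181 and 34066 CPM in Control and 45263, 31026 and 49645 CPM in the vesicle-labelled libraries, led by Col2a1. The part of these 13 lists in the erythroid values was not tested. Endothelial genes, 7 tested with 0 called (3 lower unadjusted), summed to 509, 608 and 589 CPM in Control and 373, 445 and 449 CPM in the vesicle-labelled libraries, led by Pecam1.

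**Figure D3:**
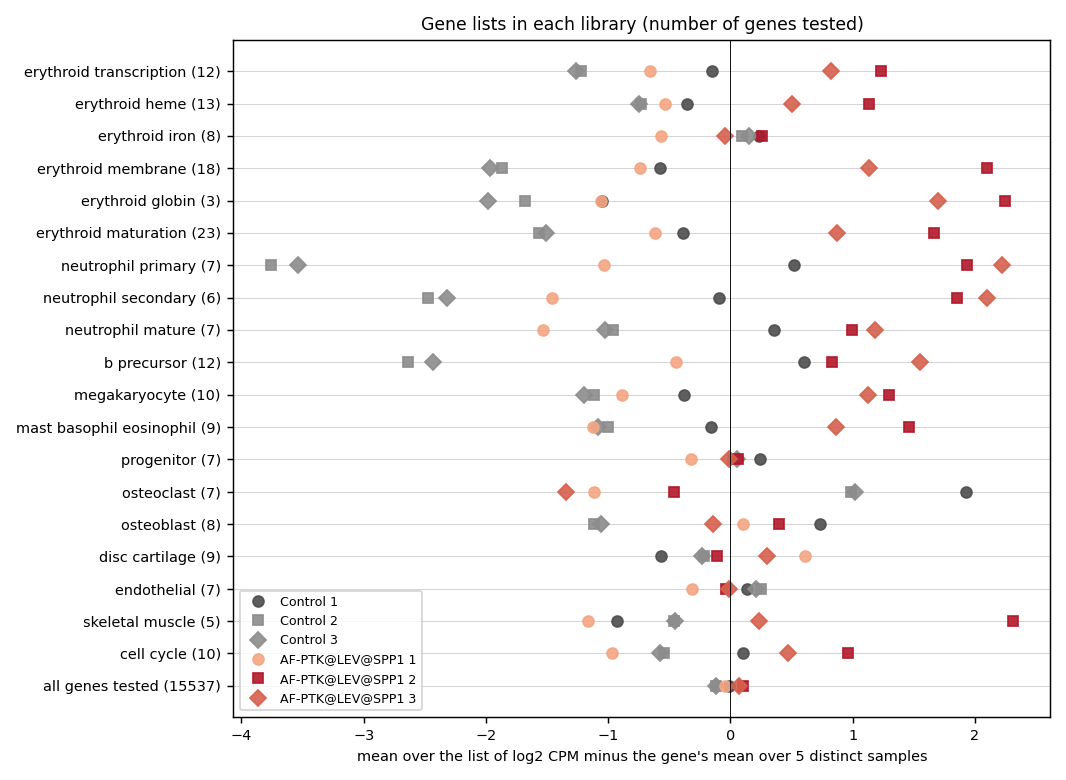
For each gene list, the mean over its tested genes of log2 CPM minus the gene's mean over the 5 distinct samples, 1 point per library, with the number of genes tested in brackets. Vesicle-labelled replicates 2 and 3 (the label AF-PTK@LEV@SPP1) lie to the right for most erythroid lists and for granulocyte, B cell precursor, megakaryocyte and cell cycle lists, the Control pair to the left for most of these, and all genes tested lie near 0.

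The 10 genes most like the 8 were found by the root mean square distance of their centred log2 CPM over the 5 distinct samples from the mean course of the 8, among 14212 other genes whose mean log2 CPM was not below 0. They were Plek2, AC118772.1, Rhd, Pla2g4c, Trim10, Tspo2, Add2, Hist3h2ba, Btnl10 and Art4, at distances of 0.08 to 0.41, where the median gene was at 1.99. Rhd, Trim10, Tspo2 and Add2 stand in the erythroid lists. Plek2, the nearest, had 12, 0 and 2 counts in Control and 7, 147 and 66 counts in the vesicle-labelled libraries. Rhd, which encodes the Rh antigen carried with Rhag, had 69, 12 and 14 counts in Control and 49, 863 and 426 counts in the vesicle-labelled libraries. Of the 8 themselves, Gata1 and Klf1 lay nearest to their own mean course, at 0.28 each, and Hbb and Rhag farthest, at 1.11 and 1.18. Over the 6 libraries in place of 5 samples, 6 of the 10 genes were found again, and the nearest, Plek2 and AC118772.1, were not among them.

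Promoter sequences are shown because the 8 genes shared much of their course over the libraries. RefSeq windows of 300 bases (250 before to 50 after the gene's start, build GRCr8) were found for 7 of the 8 genes, and Slc4a1 was not matched. The GATA word (A or T, then GATA, then A or G), searched on both strands, occurs in 30.3% of all 33469 promoters and in 4 of the 7, Klf1, Alas2, Epb42 and Rhag, 1 match each. The box CCNCNCCC, of the kind Klf1 binds, occurs in 46.3% of all promoters and in 3 of the 7, Gata1, Tmcc2 and Hbb. Its form CCACACCC occurs in 3.22% of all and, of the 7, in Hbb. No gene of the 7 held both kinds of match, and a match is a description and not a site. The 4 promoters with a GATA word and that of Hbb are printed 5′ to 3′ on the gene's strand, with the GATA word and the box in capitals (TTATCA where the word is on the other strand).
Alas2, chrX:22895200-22895499, plus strand: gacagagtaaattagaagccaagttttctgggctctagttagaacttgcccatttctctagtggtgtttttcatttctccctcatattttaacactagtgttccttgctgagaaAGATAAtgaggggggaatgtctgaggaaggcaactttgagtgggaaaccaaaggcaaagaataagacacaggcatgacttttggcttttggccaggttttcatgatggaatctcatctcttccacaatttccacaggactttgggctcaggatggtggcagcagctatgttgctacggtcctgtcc
Rhag, chr9:27594341-27594640, minus strand: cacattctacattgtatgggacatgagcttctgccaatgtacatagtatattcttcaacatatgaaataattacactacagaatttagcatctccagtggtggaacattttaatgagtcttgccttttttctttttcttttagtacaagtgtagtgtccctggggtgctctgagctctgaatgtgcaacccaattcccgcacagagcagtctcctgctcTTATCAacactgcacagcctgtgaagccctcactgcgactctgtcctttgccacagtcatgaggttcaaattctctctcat
Klf1, chr19:40158602-40158901, minus strand: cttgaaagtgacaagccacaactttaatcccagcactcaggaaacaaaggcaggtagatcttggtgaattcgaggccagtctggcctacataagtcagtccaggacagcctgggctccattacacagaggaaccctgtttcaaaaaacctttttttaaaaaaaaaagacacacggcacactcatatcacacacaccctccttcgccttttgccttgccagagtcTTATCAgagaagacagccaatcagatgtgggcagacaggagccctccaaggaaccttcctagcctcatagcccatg
Epb42, chr3:128451634-128451933, minus strand: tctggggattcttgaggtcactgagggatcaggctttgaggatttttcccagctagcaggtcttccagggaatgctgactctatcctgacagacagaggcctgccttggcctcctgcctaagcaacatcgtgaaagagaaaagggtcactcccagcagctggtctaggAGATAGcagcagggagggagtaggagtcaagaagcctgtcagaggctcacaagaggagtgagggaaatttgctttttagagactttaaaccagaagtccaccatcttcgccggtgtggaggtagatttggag
Hbb, chr1:167663672-167663971, minus strand: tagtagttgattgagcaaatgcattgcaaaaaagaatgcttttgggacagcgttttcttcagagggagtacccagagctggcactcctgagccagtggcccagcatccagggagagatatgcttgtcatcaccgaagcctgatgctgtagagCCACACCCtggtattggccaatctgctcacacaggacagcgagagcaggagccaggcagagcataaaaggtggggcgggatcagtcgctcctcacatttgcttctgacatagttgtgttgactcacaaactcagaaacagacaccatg
The GATA word began 136 bases before the start for Alas2, 31 for Rhag, 26 for Klf1 and 82 for Epb42, and the box of Hbb began 98 bases before it.

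The groups hold 2 and 3 distinct samples, and the near-identical Control pair leaves the spread of Control to 1 comparison. For these libraries the methods name no molecular barcodes, so any copies made in amplification cannot be told apart. Intervals and count limits cover counting error alone. Whether the libraries differ in time or in treatment could not be examined, since records and methods disagree. The target gene did not separate the labels, but its level in bulk tissue cannot decide whether they hold. Markers of other tissues did differ, as with muscle genes at 8415 CPM in vesicle-labelled replicate 2 and 807 to 2119 in the other libraries. Whether the tissue taken differed was not tested. The erythroid genes were selected from the counts, their groups overlap, and the part of the vesicle in their values was not tested.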

How the data were processed

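The authors deposited counts, whole numbers of reads per Ensembl gene in 6 bulk RNA libraries, without normalization. The submitters' processing notes name FastQC, Trimmomatic, HISAT2, featureCounts, DESeq2 and the mouse build mm10, whereas the identifiers and coordinates are those of rat genes. Of the 30562 genes, 544 share a name with another, and genes were followed by identifier.

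Control replicates 2 and 3 were summed after the replicate check. The 5 distinct samples went into edgeR 4.0.16, run in R 4.3.3 (TMM normalization, filterByExpr at a minimum count of 10, quasi-likelihood test, Benjamini-Hochberg adjustment over all 15537 genes kept, common biological coefficient of variation 0.302), and the steps were tested on simulated data. Normalized CPM of the 6 libraries used TMM factors, and log2 CPM a prior count of 2. Standard errors of log2 fold changes are not an output of this test. They were taken as the absolute log2 fold change divided by the square root of the F statistic. They are approximate, most of all for genes with few counts. Means are over 2 distinct Control samples (replicate 1, and the mean of replicates 2 and 3) and 3 labelled AF-PTK@LEV@SPP1. Alternatives were DESeq2 1.42.0, limma-voom (limma 3.58.1), RLE factors, plain library sizes, other filters, all 6 libraries, the replicate number as a block and each library left out.

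Members and lists were chosen with earlier results of these data known. Named were the 8 genes, Spp1, each other erythroid list gene that passed the test, the 4 most abundant per role list, the most abundant gene and the genes near 0 of each marker list, and the 10 genes most like the 8. Adgre1, Itgam, Cd68, Bglap, Ppbp, Mcpt1, Chad, Tfr2, Lcn2, S100a8, S100a9 and Pf4 were added after their values were seen.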

Additional observations from a re-analysis of the deposited data

How the results depend on the processing

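The log2 fold changes of the 8 genes stayed positive in all 120 combinations of gene and alternative, from 1.31 to 8.87, and 117 were within 1 SD of the value reported (SD of log2 CPM between samples, pooled over the groups). The 3 beyond it were Rhag, Slc4a1 and Gata1 without Control replicate 1 (8.87, 6.03 and 5.56), and by the standard error Epb42 in that fit and Tmcc2 without vesicle-labelled replicate 2 lay beyond as well. The 8 genes were chosen for varying between these libraries, and vesicle-labelled replicates 2 and 3 were the highest for all 8. The alternatives reuse the same libraries, so the steady sign was largely fixed in advance and is no support. The SD is that of the same varying genes and makes a loose bound. The median log2 ratio of mean levels, 3.17, was 3.14 on plain library sizes and 3.21 with the main collagen genes and Sparc left out of them.

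The count of genes called, 575, was 2727 with all 6 libraries separate and 2572 with DESeq2, and ranged from 0 to 566 with a replicate left out. Erythroid list genes called, 2, became 11 and 23 under the same settings and ranged from 0 to 2 with a replicate left out. For the marker lists, 6 calls became 17 and 20, with 0 to 6 when a replicate was left out. The cause was not tested. RLE factors, plain library sizes, limma-voom and both other filters kept these 3 counts within 1.5 times. Spp1 ranged from -0.0657, without Control replicates 2 and 3, to 0.81 with a replicate left out, and was called in 0 of 15 alternatives.

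Blocking on the replicate number, with all 6 libraries separate, 741 genes, 3 erythroid list genes and 10 marker genes were called, fewer than the 2727, 11 and 17 of the 6 libraries without a block, and the log2 fold change of Spp1 was 0.52. Deviations of same-numbered libraries correlated at -0.32, -0.27 and -0.08 (mean -0.23, against 0.10 for different numbers), and with a near-identical Control pair these cannot tell whether numbers pair the rats. In the Control pair, Gata1 and Rhag had 0 to 5 counts per library, and depth limits what can be said of their level there.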

Other observations

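Bglap, osteocalcin, a protein of mature osteoblasts and osteocytes, split the libraries otherwise than the levels of the 8 erythroid genes. It had 12163, 188 and 207 counts in Control and 9647, 14475 and 13296 counts in the vesicle-labelled libraries. Control replicate 1 was thus with all 3 vesicle-labelled libraries, and the Control pair was far below, as with the Slc4a1 counts per 1000 of Hbb. Bglap was named after its values were seen, its groups overlapped over the 5 distinct samples, and no test was made of how it relates to the erythroid genes.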
